A study of Mus musculus with 10 samples.

Results

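The 10 genes described here carry signals through calcium and protein kinase C (PKC). They encode the kinases PKCα (*Prkca*), PKCβ (*Prkcb*) and PKCδ (*Prkcd*), the pore subunits of the L-type calcium channels (*Cacna1c* and *Cacna1d*), the 3 inositol trisphosphate (IP3) receptors (*Itpr1*, *Itpr2* and *Itpr3*), phospholipase C β1 (*Plcb1*) and the δ chain of calcium/calmodulin-dependent kinase II (*Camk2d*). They belong to the gonadotropin-releasing hormone (GnRH) signaling pathway that the study reports. They were picked by symbol and are 10 of the 54232 genes of the count table. The pathway was reported from the comparison of *Dis3* conditional knockout (cKO) with control testes in these same libraries, so the difference of each of the 10 genes between the groups is given as a description, with no test, and nothing rests on it. After a filter on low counts, 20043 genes were tested, and all 10 were among them.

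RNA-seq was carried out on whole testes of mice at postnatal day 4 (P4). There were 5 *Dis3* cKO and 5 control libraries, each made from the pooled testes of a different mouse. The floxed *Dis3* line was made in zygotes of B6D2F1 parents and crossed with *Ddx4-Cre* mice. *Dis3* cKO mice had 1 floxed and 1 deleted *Dis3* allele and the *Ddx4-Cre* transgene, which is expressed in germ cells and removes exons 4 to 6 of the floxed allele there. By this genotype, the somatic cells of these testes are expected to carry the deleted allele and to keep the floxed one intact. Controls were siblings of the same litters, which the labels call wild type for *Dis3*, the gene of a 3′ to 5′ ribonuclease of the RNA exosome. Depth was 28538849 to 37739906 gene counts per library in *Dis3* cKO and 35391042 to 41104912 in control, and values are given as normalized counts, which are scaled to a common library size. *Dis3* itself had 1494 ± 167 normalized counts in *Dis3* cKO and 4596 ± 491 in control (SD, n = 5 each), and its log2 fold change was -1.62. Summed counts of 7 germ cell markers were lower in every *Dis3* cKO library (14708 to 19457) than in every control library (20541 to 25332). Of the 7, 2 passed the test, *Dazl* (-0.67) and *Uchl1* (-0.68). The others had log2 fold changes of -0.67 (*Dnd1*), -0.26 (*Ddx4*), -0.23 (*Zbtb16*), -0.08 (*Sall4*) and 0.07 (*Gfra1*). Within replicates 1 to 3 these were -0.60 (*Dnd1*), 0.16 (*Ddx4*), -0.01 (*Zbtb16*), 0.05 (*Sall4*) and 0.16 (*Gfra1*), so in that set the fall was not shared by all 7 markers. Within replicates 4 and 5 all 7 had negative log2 fold changes. They were -0.98 (*Uchl1*), -0.87 (*Dazl*), -0.81 (*Dnd1*), -0.84 (*Ddx4*), -0.69 (*Zbtb16*), -0.31 (*Sall4*) and -0.12 (*Gfra1*). In RNA from whole testes, fewer cells of a type and less RNA per cell cannot be told apart. Within both groups, replicates 1 to 3 and replicates 4 and 5 formed separate sets, a division known from earlier results and not named in the labels, and values within each set are therefore given for the 10 genes. *Dis3* cKO replicate 1 also stood apart within its set, with a chi-square per degree of freedom over genes of 21.4 and 26.1 against replicates 2 and 3, and of 4.68 between those. To a lesser degree so did control replicate 3, with 15.9 and 15.4 against control replicates 1 and 2, and 4.36 between those.

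GnRH and many other ligands act on receptors coupled to Gq proteins, which activate phospholipase C β. The lipase cleaves a membrane lipid into IP3, which opens IP3 receptors and releases calcium from the endoplasmic reticulum, and diacylglycerol, which activates PKC at the membrane. Calcium also enters through voltage-gated channels of the L type, and calcium bound to calmodulin switches on CaM kinase II. In the testis these steps operate in contractile peritubular myoid cells and in hormone-responsive Leydig and Sertoli cells as well as in vessels, and none of the 10 genes is among the cell type markers used here.

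Among the kinases, *Prkca* had the clearest difference. PKCα is a conventional isoform, which needs both calcium and diacylglycerol. *Prkca* had 1312, 1503, 1465, 1347 and 1327 normalized counts in *Dis3* cKO replicates 1 to 5, against 809, 889, 915, 896 and 1042 in control replicates 1 to 5. The lowest *Dis3* cKO library thus lay above the highest control library. The group means were 1391 ± 86.9 and 910.3 ± 84.1 (SD, n = 5 each), and the log2 fold change of 0.61 (SE 0.08) was the largest of the 10 genes. Replicates 1 to 3 alone gave 0.71, and replicates 4 and 5 alone gave 0.47.

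PKCβ, the other conventional isoform, had a smaller difference, and PKCδ, which responds to diacylglycerol without calcium, had almost none. *Prkcb* had 441, 480.4, 447, 340.1 and 339.7 normalized counts in *Dis3* cKO replicates 1 to 5, against 335, 348, 365, 293 and 284 in control replicates 1 to 5. The groups overlapped over all 10 libraries but not within either set of replicates, since replicates 4 and 5 were low in both groups. Its log2 fold change was 0.33 (SE 0.12). *Prkcd* had 599, 815, 768, 912 and 781 normalized counts in *Dis3* cKO replicates 1 to 5, against 686, 769, 774, 767 and 769 in control replicates 1 to 5. The *Dis3* cKO libraries lay on both sides of the control libraries, and the log2 fold change was 0.04 (SE 0.10). It was 0.12 without *Dis3* cKO replicate 1 and -0.02 without *Dis3* cKO replicate 4.

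The start regions of *Prkca* and *Prkcd*, the kinases with the largest and the smallest difference, are shown from RefSeq (GRCm38.p6), each from 250 bases before to 50 bases after the start site. GC boxes (GGGCGG on either strand) are in capitals. The *Prkca* window is chr11:108343839-108344138 on the minus strand, and the *Prkcd* window is chr14:30626159-30626458 on the minus strand.
*Prkca*: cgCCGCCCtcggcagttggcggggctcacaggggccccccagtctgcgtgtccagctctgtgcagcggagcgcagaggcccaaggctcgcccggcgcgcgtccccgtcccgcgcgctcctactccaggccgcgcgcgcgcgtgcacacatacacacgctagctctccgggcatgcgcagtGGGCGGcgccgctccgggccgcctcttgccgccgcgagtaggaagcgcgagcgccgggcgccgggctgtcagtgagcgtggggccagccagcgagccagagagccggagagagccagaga
*Prkcd*: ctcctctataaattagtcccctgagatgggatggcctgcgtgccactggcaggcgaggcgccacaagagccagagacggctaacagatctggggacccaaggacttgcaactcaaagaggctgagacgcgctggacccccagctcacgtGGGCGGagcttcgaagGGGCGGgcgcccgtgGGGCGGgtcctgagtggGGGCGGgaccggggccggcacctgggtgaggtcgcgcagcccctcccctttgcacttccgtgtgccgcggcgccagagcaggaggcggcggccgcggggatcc
The *Prkca* window is 75.3% G or C, with 2 GC boxes and 42 CG steps. The *Prkcd* window is 69.3% G or C, with 4 GC boxes, 26 CG steps and 1 TATAAA. A GC box was found in 35.9% of 32544 different windows of this kind, and TATAAA on either strand in 13.6%.

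The L-type channel genes differed from each other. *Cacna1c* encodes the pore of the channel of smooth and cardiac muscle. It had 774, 988, 1005, 1158 and 985 normalized counts in *Dis3* cKO replicates 1 to 5, against 645, 671, 752, 655 and 753 in control replicates 1 to 5. The groups did not overlap, and the log2 fold change was 0.50 (SE 0.10). *Cacna1d*, which encodes a channel that opens at lower voltages, had 965, 1152, 1139, 1323 and 1311 normalized counts in *Dis3* cKO replicates 1 to 5, against 1138, 987, 1016, 788 and 939.96 in control replicates 1 to 5. Its groups overlapped, with *Dis3* cKO replicate 1 below 3 of the control libraries. The log2 fold change of *Cacna1d* was 0.27 (SE 0.11) over all libraries, but 0.05 in replicates 1 to 3 and 0.61 in replicates 4 and 5 alone. Both channel genes have several start sites in RefSeq, with windows from 40.3% to 87.3% G or C, and the gene counts do not separate transcripts from these starts.

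All 3 IP3 receptor genes had higher means in *Dis3* cKO. *Itpr1* was the most abundant of the 10 genes and the least variable between libraries of a group. It had 8379.8, 8827, 8770.1, 9141 and 8650.4 normalized counts in *Dis3* cKO replicates 1 to 5, against 6487, 6184, 6958, 6816 and 6335 in control replicates 1 to 5. The groups were far apart, with means of 8754 ± 277 and 6556 ± 325 (SD, n = 5 each). The log2 fold change was 0.42 (SE 0.06), and the sets of replicates gave 0.40 (1 to 3) and 0.44 (4 and 5).

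*Itpr2* and *Itpr3* encode receptors that differ from the *Itpr1* product in their affinity for IP3, and their values depended on the set of replicates. *Itpr2* had 932, 836, 806, 1077 and 1249 normalized counts in *Dis3* cKO replicates 1 to 5, against 643, 674, 713, 715 and 698 in control replicates 1 to 5. Its groups did not overlap, and the log2 fold change was 0.51 (SE 0.11), made up of 0.34 in the first set (replicates 1 to 3) and 0.73 in the second (replicates 4 and 5). *Itpr3* had 1376, 1702, 1841, 1382 and 1606 normalized counts in *Dis3* cKO replicates 1 to 5, against 1078, 1091, 1354, 1450.2 and 1359.9 in control replicates 1 to 5. It went the other way between the sets, with a log2 fold change of 0.48 in the first set, 0.10 in the second and 0.32 (SE 0.11) over all libraries. *Dis3* cKO replicate 4 lay below control replicate 4.

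*Plcb1* and *Camk2d*, the lipase at the top of the route and a kinase at its end, had small differences. *Plcb1* had 631, 646, 612, 784 and 647 normalized counts in *Dis3* cKO replicates 1 to 5, against 656, 555, 661, 509.9 and 538 in control replicates 1 to 5. Its log2 fold change was 0.18 (SE 0.10), and like that of *Cacna1d* it was larger in replicates 4 and 5 (0.46) than in replicates 1 to 3 (0.01). Without *Dis3* cKO replicate 4, its highest library, it was 0.12. *Camk2d* had 2788, 2493, 2529, 2859 and 2655 normalized counts in *Dis3* cKO replicates 1 to 5, against 2359, 2407, 2452, 2619 and 2474 in control replicates 1 to 5. Its groups did not overlap within either set, although they did over all 10 libraries, and the log2 fold change was 0.11 (SE 0.06). On the same strand, *Camk2d* is overlapped by 7 other genes, of which the most highly counted had a mean of 132 counts. *Prkcb* is likewise overlapped by 7 genes, with a highest mean of 27 counts. Reads from shared stretches cannot be assigned to 1 gene.

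**Figure D1:**
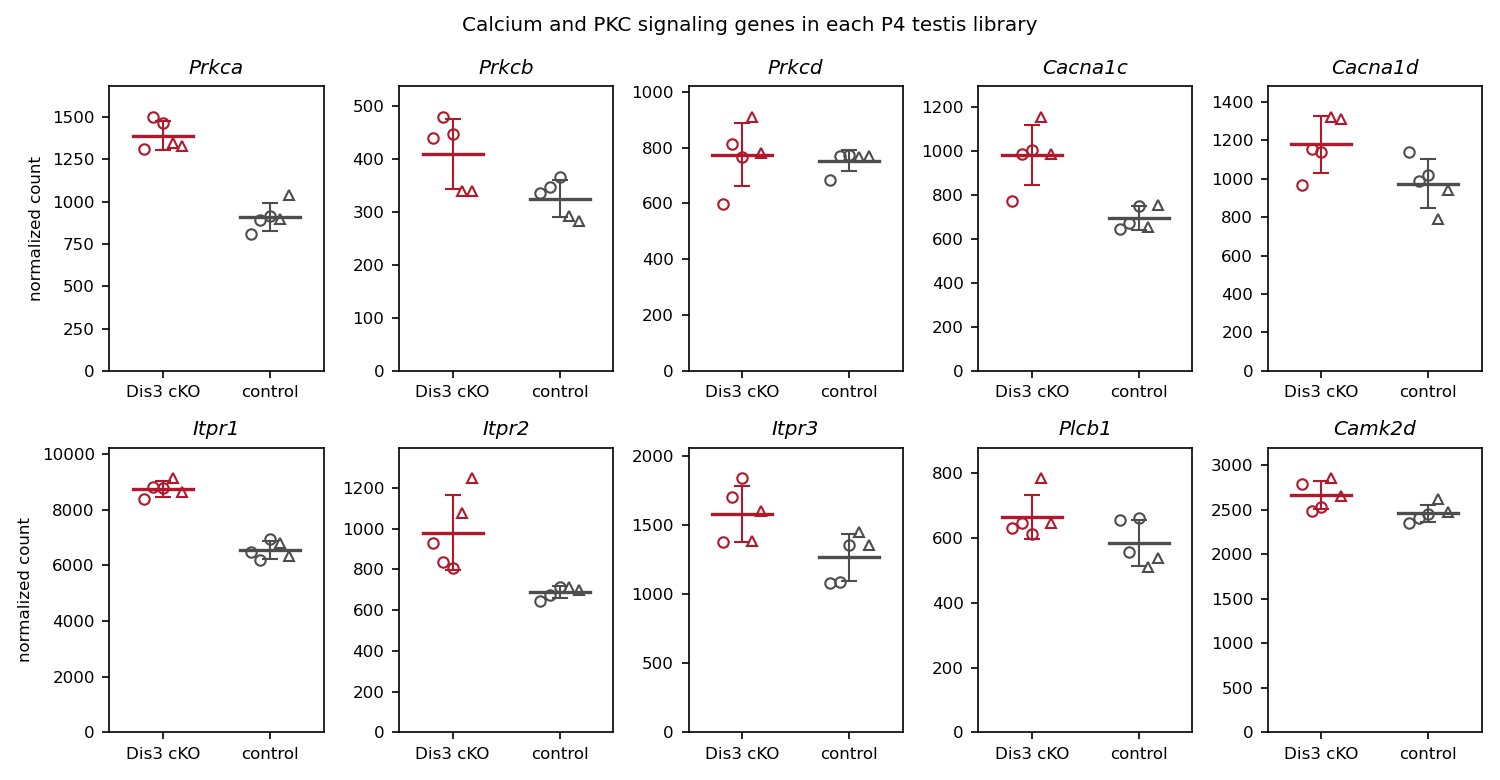
Normalized counts of the 10 genes in each P4 testis library, *Dis3* cKO (red) left of control (gray), with circles marking replicates 1 to 3, triangles marking replicates 4 and 5, and bars for the mean ± SD (n = 5). *Prkca*, *Cacna1c*, *Itpr1* and *Itpr2* have no *Dis3* cKO library within the control range, whereas *Prkcd* spreads from 599 to 912 in *Dis3* cKO around a control range of 686 to 774.

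In the fit across all genes (edgeR's quasi-likelihood test, Benjamini-Hochberg adjusted), 4 of the 10 genes were past the threshold of 0.05 and higher in *Dis3* cKO, and 0 were lower. These were *Prkca*, *Cacna1c*, *Itpr1* and *Itpr2*, the same genes whose groups did not overlap. Of all tested genes, 7.9% were past the threshold, 4.42% higher and 3.48% lower. Groups that did not overlap were found in 4.59% (higher) and 4.31% (lower) of them. The genes were chosen from this contrast, so nothing is read from the difference between these shares. The median log2 fold change was 0.33 over the 10 genes and -0.01 over all tested genes. Within replicates 1 to 3, 7 of the 10 genes were higher in every *Dis3* cKO library than in every control library, against 13.8% of all tested genes. Within replicates 4 and 5 this held for 9 of the 10, all but *Itpr3*, against 28.4%. It held within both sets for 6 of the 10 (*Prkca*, *Prkcb*, *Cacna1c*, *Itpr1*, *Itpr2* and *Camk2d*), against 8.02%. No gene of the 10 was lower throughout in either set. The share of all tested genes that was lower throughout within a set was not counted, so nothing is read from this.

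**Figure D2:**
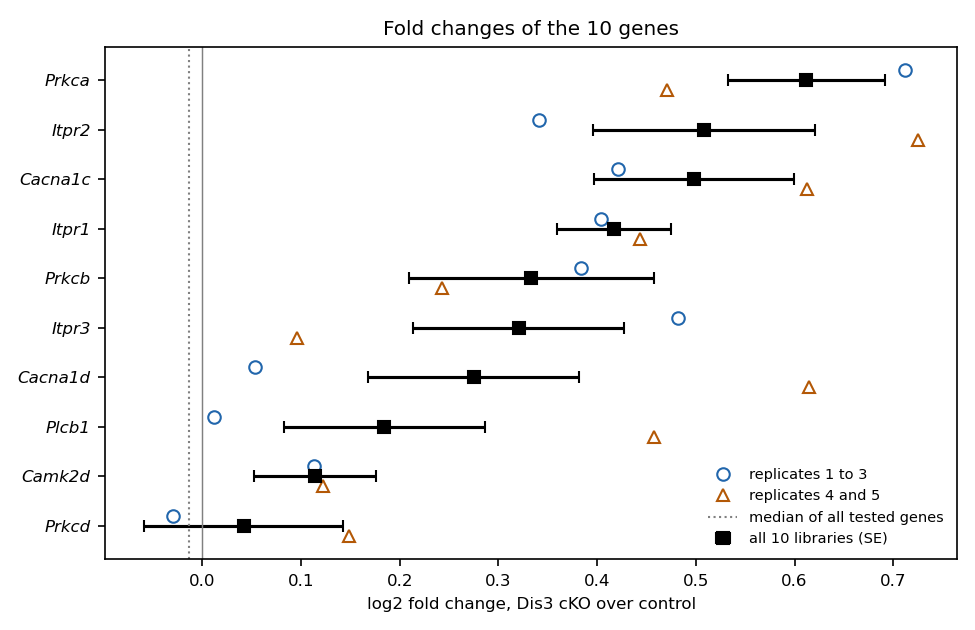
Log2 fold changes of the 10 genes, *Dis3* cKO over control, from all 10 libraries (squares, with bars for the SE) and from replicates 1 to 3 (circles) or replicates 4 and 5 (triangles) alone. The values run from 0.04 for *Prkcd* to 0.61 for *Prkca*, and the sets of replicates lie farthest apart for *Cacna1d* (0.05 and 0.61).

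The 10 genes have a long total exon length, taken over all annotated exons of a gene and not per transcript. The tested genes longest by this measure had a positive median difference. Their exons cover 5544 to 22493 bases, all above the median of 3544 bases over the tested genes, and 8 of the 10 are among the 2005 tested genes with exons of 8944 bases or more. Those 2005 genes had a median log2 fold change of 0.12, and 15.8% of them were past the threshold and higher. After the trend of each library over gene length was removed, *Prkca* (0.54) and *Itpr1* (0.22) were past the threshold, and *Cacna1c* (0.28) and *Itpr2* (0.35) were not. *Camk2d*, the longest of the 10, then had a log2 fold change of -0.12.

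The sets of replicates also differed in RNA of markers of other cell types. Summed counts of 7 stromal markers were 444223 and 454506 in *Dis3* cKO replicates 4 and 5, against 207465 and 207919 in control replicates 4 and 5. In replicates 1 to 3 they ran from 222065 to 298350 in *Dis3* cKO and from 294349 to 326669 in control. *Col1a1* alone had 178118 and 191683 in *Dis3* cKO replicates 4 and 5. In the first and second set, log2 fold changes were -0.12 and 1.79 for *Col1a1*, -0.33 and 1.22 for *Col1a2*, and -0.33 and 0.87 for *Col3a1*. They were -0.34 and 1.22 for *Lum*, -0.04 and 0.55 for *Dcn*, -0.41 and 0.03 for *Tcf21*, and 0.23 and 0.32 for *Pdgfra*. Those of 7 peritubular myoid markers were 104401 and 104489 in *Dis3* cKO replicates 4 and 5, against 64585 and 64529 in control replicates 4 and 5. In replicates 1 to 3 the myoid sums were 82615 to 93692 in *Dis3* cKO and 94427 to 98178 in control, with the *Dis3* cKO libraries lower. *Myh11* had a log2 fold change of 0.21 in that set, and the other myoid markers ranged from -0.70 (*Tagln*) to -0.02 (*Mylk*). In the second set the 7 myoid markers ranged from 0.21 (*Des*) to 1.26 (*Cnn1*). *Cacna1d*, *Plcb1*, *Itpr2* and *Cacna1c* had their larger differences in the set in which these stromal and myoid sums were higher in *Dis3* cKO. So did *Prkcd* (-0.03 in the first set and 0.15 in the second). *Prkca*, *Prkcb* and *Itpr3* had theirs in the other set. Summed counts of 7 Sertoli markers had their larger difference in that other set. They were 236509 to 263390 in *Dis3* cKO and 201544 to 204138 in control in replicates 1 to 3. In replicates 4 and 5 they were 190726 and 197570 in *Dis3* cKO and 188631 and 189121 in control. *Rhox8*, *Aard*, *Dhh*, *Clu* and *Amh* had larger log2 fold changes in the first set. *Wt1* (0.15 in the first set and 0.23 in the second) and *Sox9* (0.12 and 0.17) went the other way. All 7 Sertoli markers had positive log2 fold changes and 1, *Rhox8*, passed the test. Summed counts of 7 endothelial markers were 15496 to 20543 in *Dis3* cKO and 14554 to 17237 in control. Most of this was *Cdh5*, with means of 13800 in *Dis3* cKO and 11160 in control. In the first and second set, log2 fold changes were 0.27 and 0.35 for *Cdh5*, 0.08 and 0.49 for *Emcn*, and 0.08 and 1.19 for *Vwf*. They were -0.09 and 0.39 for *Pecam1*, -0.32 and 0.84 for *Kdr*, -0.19 and 0.60 for *Cldn5*, and -0.15 and 0.24 for *Tek*. *Itpr1* and *Camk2d* differed little between the sets. None of the germ cell, stromal, myoid, Sertoli or endothelial markers was at 0 in any library. Over all 10 libraries 0 of the 7 stromal markers and 1 of the 7 myoid markers, *Myh11*, passed the test. The part of cell composition in the values of the 10 genes was not tested.

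Levels were compared between the genes as CPM (counts scaled to a common library size) per kilobase of exon. *Itpr1* had the highest level, with 13.8 ± 0.435 in *Dis3* cKO and 10.3 ± 0.511 in control (SD, n = 5 each), which in control placed it above 73.9% of the tested genes. In control it was followed by *Itpr3* (4.06), *Prkcd* (3.92), *Camk2d* (3.16), *Prkca* (2.92), *Cacna1d* (2.22), *Plcb1* (1.51), *Itpr2* (1.34), *Prkcb* (1.23) and *Cacna1c* (0.946, above 30.8% of tested genes). Several neighbors in this order overlapped between control libraries and had no clear order, namely *Itpr3* with *Prkcd*, *Camk2d* with *Prkca*, *Prkca* with *Cacna1d*, *Plcb1* with *Itpr2*, and *Itpr2* with *Prkcb*. In *Dis3* cKO the mean level of *Prkca* was 4.46, above those of *Prkcd* (4.03) and *Camk2d* (3.42). Between *Dis3* cKO libraries, *Prkca* (4.206 to 4.818) and *Prkcd* (3.112 to 4.739) overlapped and had no clear order. *Camk2d* (3.195 to 3.663) did not overlap *Prkca*.

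**Figure D3:**
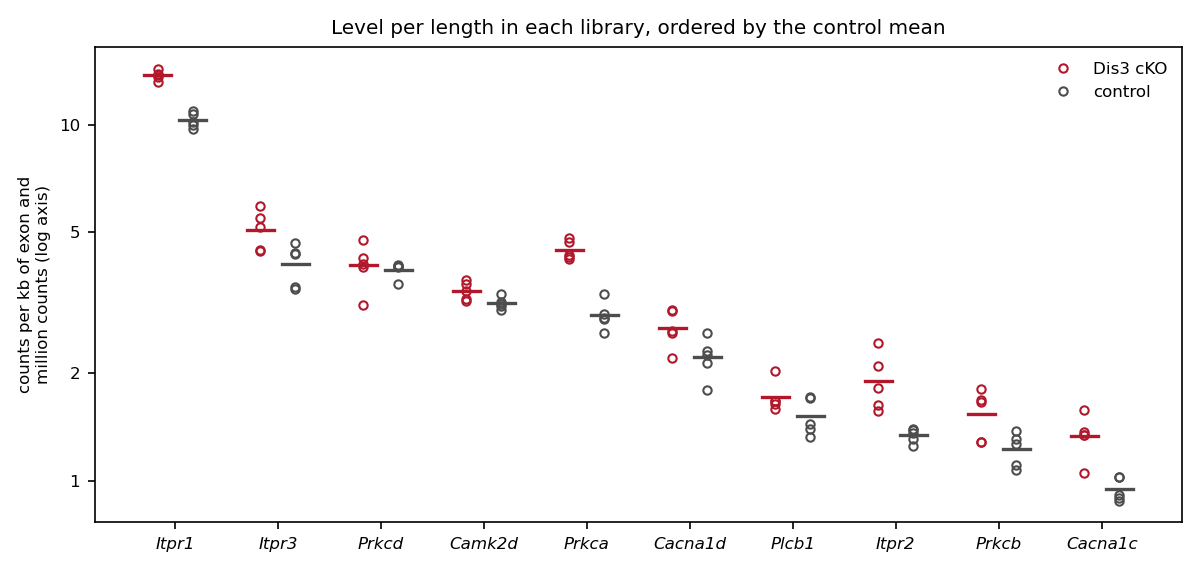
CPM per kilobase of exon of the 10 genes in each library on a log axis, with *Dis3* cKO (red) left of control (gray), lines at the means (n = 5 each), and genes ordered by the control mean. *Itpr1* lies apart at 13.8 in *Dis3* cKO and 10.3 in control, and *Cacna1c* lies lowest at 1.34 in *Dis3* cKO and 0.946 in control.

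Among the 3 PKC genes described here, *Prkca* took a larger share in *Dis3* cKO, while the level of *Prkcd* itself was much the same in both groups (4.03 in *Dis3* cKO and 3.92 in control). Other PKC genes are left out of these shares, among them *Prkci* with 5451 normalized counts in *Dis3* cKO and 5211 in control. *Prkca* made up 44.5% ± 1.85 of the summed level of the 3 PKC genes in *Dis3* cKO and 36.2% ± 2.04 in control (SD, n = 5 each), with no overlap (41.8% to 46.8% and 34.9% to 39.7%). *Prkcd* made up 40.1% in *Dis3* cKO and 48.6% in control, again with no overlap (34.7% to 45.8% and 47.6% to 50.1%), while *Prkcb* had 15.4% in *Dis3* cKO and 15.2% in control. The summed level of the IP3 receptors was 20.8 ± 0.764 in *Dis3* cKO and 15.7 ± 1.01 in control, and its makeup was nearly the same in both groups. *Itpr1* held 66.4% of it in *Dis3* cKO and 65.7% in control, *Itpr3* 24.4% and 25.8%, and *Itpr2* 9.20% and 8.54%. The summed level of the L-type channels was 4.03 ± 0.504 in *Dis3* cKO and 3.17 ± 0.298 in control, with *Cacna1c* at 33.2% and 30.0% of it.

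The antisense strand of the 3000 bases upstream of each gene was counted by the authors as its promoter upstream transcript (PROMPT), a short-lived RNA that the exosome degrades. Of the 10 genes, 7 had such a region in the table, without *Prkca*, *Cacna1c* and *Cacna1d*, and 4 had enough counts to be tested. These values come from the same contrast and are likewise a description. Of all 12345 regions tested, 13.6% were past the threshold and higher in *Dis3* cKO and 0.0486%, or 6 regions, were lower, and the 4 included 1 of each kind. Groups that did not overlap were found in 11.1% (higher) and 0.0891% (lower) of the regions, and in 0 of the 4.

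Upstream of *Itpr3* the antisense RNA was higher in *Dis3* cKO. Its raw counts were 20, 9, 18, 44 and 22 in *Dis3* cKO replicates 1 to 5, against 10, 11, 9, 9 and 9 in control replicates 1 to 5. Every *Dis3* cKO library but replicate 2 was above all control libraries, and the log2 fold change was 1.51 (SE 0.49). Without *Dis3* cKO replicate 4 it was 1.13 and no longer past the threshold. The start region of *Itpr3*, chr17:27057054-27057353 on the plus strand, is shown because its first 250 bases are the gene end of the counted region, with the GC box in capitals.
*Itpr3*: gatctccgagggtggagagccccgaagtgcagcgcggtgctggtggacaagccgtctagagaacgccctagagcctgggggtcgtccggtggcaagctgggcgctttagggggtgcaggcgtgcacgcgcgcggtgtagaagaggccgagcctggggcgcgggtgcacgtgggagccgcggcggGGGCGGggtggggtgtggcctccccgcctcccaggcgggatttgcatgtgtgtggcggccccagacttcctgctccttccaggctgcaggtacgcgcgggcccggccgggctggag
It is 72.3% G or C with 30 CG steps.

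Upstream of *Itpr1* the antisense RNA was lower in *Dis3* cKO, while the gene itself was higher. The raw counts were 44, 38, 34, 64 and 69 in *Dis3* cKO replicates 1 to 5, against 81, 107, 62, 142 and 119 in control replicates 1 to 5. After normalization the means were 55.5 ± 18.9 in *Dis3* cKO and 94.8 ± 32.2 in control (SD, n = 5 each), and the groups overlapped. The log2 fold change was -0.77 (SE 0.27). It ranged from -0.93 to -0.61 when each library was left out, and it was no longer past the threshold without control replicate 2 (-0.75), 4 (-0.61) or 5 (-0.72) or *Dis3* cKO replicate 2 (-0.65) or 3 (-0.66).

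The region upstream of *Itpr1* holds an annotated gene. RefSeq (GRCm38.p6) places the lncRNA *Gm38872* at chr6:108212256-108212918 on the minus strand, so that all of its 663 bases lie in the counted region and on the counted strand. Reads from *Gm38872* and from other antisense RNA of *Itpr1* cannot be told apart in these counts. The 177 bases between the starts of *Gm38872* and *Itpr1*, chr6:108212919-108213095, are shown on the minus strand, with the 10 bases next to *Itpr1* (first) and the 10 next to *Gm38872* (last) in capitals.
*Itpr1* to *Gm38872*: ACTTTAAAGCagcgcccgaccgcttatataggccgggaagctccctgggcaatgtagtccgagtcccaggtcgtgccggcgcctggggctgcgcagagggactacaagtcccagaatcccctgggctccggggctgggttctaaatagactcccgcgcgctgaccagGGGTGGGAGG
This stretch is 64.4% G or C with 13 CG steps and holds no GC box and no TATAAA on either strand. Of the other regions tested, that of *Prkcd* had a log2 fold change of -0.27 (SE 0.72) and that of *Camk2d* of 1.24 (SE 0.87), on means of 7.21 and 8.46 normalized counts in *Dis3* cKO and 8.72 and 3.50 in control. The regions of *Prkcb*, *Itpr2* and *Plcb1* had at most 11 counts in a library and were not tested.

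**Figure D4:**
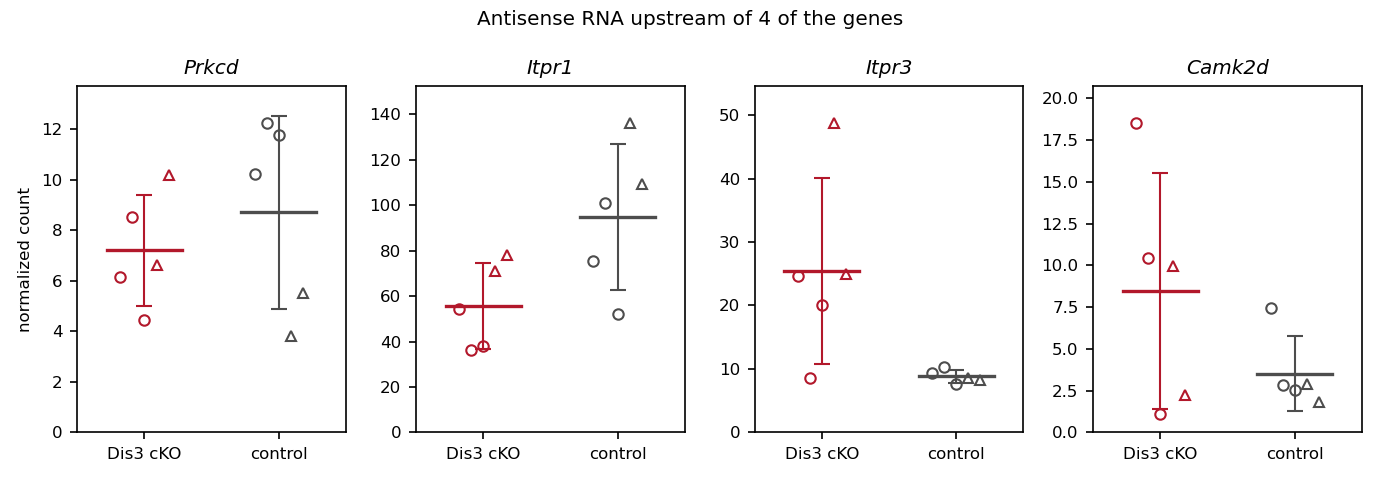
Normalized counts of antisense RNA in the 3000 bases upstream of the 4 genes tested, in each library, with *Dis3* cKO (red) left of control (gray), circles marking replicates 1 to 3, triangles marking replicates 4 and 5, and bars for the mean ± SD (n = 5). The *Itpr1* region averages 55.5 in *Dis3* cKO and 94.8 in control, and the *Itpr3* region 25.4 in *Dis3* cKO and 8.83 in control.

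Start windows from RefSeq were matched for 9 of the 10 genes, and none was used here for *Itpr1*. No window of the 9 held an AP-1 motif (TGANTCA on either strand), found in 7.8% of all windows, or a full cAMP response element (TGACGTCA), found in 1.8%. The first windows of *Prkcb*, *Itpr2*, *Plcb1* and *Camk2d* were 65.3% to 73.3% G or C, against a median of 53.0% over all windows, and each held at least 1 GC box. Those of *Cacna1c* (51.3%) and *Cacna1d* (40.3%) were below the median and held no GC box. *Prkcd* has another start site in RefSeq besides the one shown, with a window of 51.3% G or C and no GC box.

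For each gene, the tested gene with the most similar profile over the 10 libraries was found by the root mean square (RMS) difference of log2 CPM after each gene's own mean was removed. *Camk2d* was closest to *Rab2b* (RMS difference 0.03), *Itpr1* to *Peak1* (0.05), *Prkcb* to *Cited2* (0.05), *Plcb1* to *Osbpl6* (0.06), and *Prkcd* to *Cpxm1* (0.06). *Cacna1d* was closest to *Nuak1* (0.07), *Itpr3* to *Pcnt* (0.07), *Cacna1c* to *Tenm1* (0.09), *Itpr2* to *Igf1* (0.09), and *Prkca* to *Pitpnm2* (0.10). In no case was the closest gene another of the 10. Among the 10 themselves the closest pair was *Cacna1d* and *Plcb1* (0.12) and the most distant *Prkcb* and *Itpr2* (0.34).

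The other genes of the GnRH pathway and of the gene families are read against all tested genes, of which 4.42% rose and 3.48% fell (2361 and 2432 of 20043 genes at an unadjusted p under 0.05, and 1276 and 917 of 20036 with DESeq2). Of 75 listed, 67 were tested, of which 4 rose in *Dis3* cKO and 0 fell (edgeR, adjusted p under 0.05), against 16 and 4 at an unadjusted p under 0.05 and 7 and 0 with DESeq2. The median log2 fold change was 0.06. The pathway was reported from these same samples, so the list is not independent evidence of its direction. *Mmp2*, a matrix metalloproteinase, had 10940 ± 1375 normalized counts in *Dis3* cKO and 8106 ± 492 in control (SD, n = 5 each), with a log2 fold change of 0.43 (SE 0.08) and an adjusted p of 0.00842 by edgeR, and it was higher in 5 of 5 *Dis3* cKO libraries than in any control library. The other 3 were *Adcy7*, an adenylyl cyclase (0.38, adjusted p = 0.033), *Egr1*, an immediate early transcription factor (0.41, adjusted p = 0.0338), and *Cacna1s*, the L-type channel of skeletal muscle (0.40, adjusted p = 0.0394), each above the control mean in 5 of 5 *Dis3* cKO libraries. *Mmp2* kept its call without any 1 library. *Adcy7* and *Cacna1s* lost theirs without control replicate 1 or 2 or *Dis3* cKO replicate 2, 3, 4 or 5 (log2 fold changes from 0.32 to 0.45 and from 0.35 to 0.44), and *Egr1* without control replicate 1, 4 or 5 or *Dis3* cKO replicate 1, 2, 3 or 5 (0.34 to 0.49). *Egr1* had 0.31 in the first set of replicates and 0.61 in the second. The receptor gene *Gnrhr* had 9.87 ± 8.92 normalized counts in *Dis3* cKO and 5.39 ± 3.71 in control, too few to be tested, and the pituitary hormone genes *Lhb*, *Fshb* and *Cga* were lower still.

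Of the other PKC genes, 1 fell. *Prkch*, which encodes PKCη, had 201, 311, 301, 328 and 241 normalized counts in *Dis3* cKO replicates 1 to 5, against 397, 402, 387, 457 and 379 in control replicates 1 to 5. It was lower in 5 of 5 *Dis3* cKO libraries than in any control library, with a log2 fold change of -0.55 (SE 0.13, edgeR adjusted p = 0.0225), and lost its call without control replicate 2 or 4 or *Dis3* cKO replicate 5 (-0.61 to -0.45 over all libraries left out). *Prkcq* (-0.48, edgeR adjusted p = 0.054) did not pass, although every *Dis3* cKO library was below every control library. Its log2 fold change was -0.35 in the first set of replicates and -0.69 in the second. *Prkce* (0.23, edgeR adjusted p = 0.0782, with 0.33 in the first set and 0.10 in the second) did not pass, and neither did *Prkci* (0.07) and *Prkcz* (-0.15). Over all 24 other PKC genes and diacylglycerol effectors, 0 rose and 1 fell (2 and 3 at an unadjusted p under 0.05, 0 and 2 with DESeq2), with a median log2 fold change of 0.02. Groups that did not overlap were found in 0 (higher) and 3 (lower) of the 24, against 4.59% and 4.31% of all tested genes.

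Among other voltage-gated calcium channel subunits, 2 of 14 tested rose and 0 fell (4 and 0 at an unadjusted p under 0.05, 2 and 0 with DESeq2). These were *Cacna1s* and *Cacna1h*, a T-type channel (0.35, SE 0.10, edgeR adjusted p = 0.0411, above the control mean in 5 of 5 *Dis3* cKO libraries). *Cacna1h* lost its call without control replicate 1, 2, 4 or 5 or *Dis3* cKO replicate 2 or 3 (0.29 to 0.42). The pore subunits *Cacna1a* (0.31), *Cacna1b* (-0.23), *Cacna1e* (0.16), *Cacna1g* (0.49, with 0.25 in the first set of replicates and 0.75 in the second) and *Cacna1i* (-0.26) did not pass, and *Cacna1f* was too low to be tested. The genes that clear calcium from the cytosol had the highest median of these lists, 0.21, and 4 of 13 rose and 0 fell (7 and 0 at an unadjusted p under 0.05, 4 and 0 with DESeq2). They were the exchangers *Slc8a2* (0.57, adjusted p = 0.0391) and *Slc8a1* (0.35, adjusted p = 0.0497) and the pumps *Atp2b3* (0.54, adjusted p = 0.0468) and *Atp2a2* (0.26, adjusted p = 0.0487), each above the control mean in 5 of 5 *Dis3* cKO libraries. Their calls were at the edge of the threshold, since *Slc8a2* and *Atp2a2* kept theirs only without control replicate 4 or 5, *Slc8a1* only without *Dis3* cKO replicate 3, and *Atp2b3* only without *Dis3* cKO replicate 1. Without 1 library their log2 fold changes ranged from 0.49 to 0.65, from 0.22 to 0.31, from 0.28 to 0.42 and from 0.45 to 0.63. *Slc8a1* had a log2 fold change of 0.14 in the first set of replicates and 0.64 in the second.

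Release channels of the other kind and store-operated entry gave no call. Of 14 ryanodine receptor, STIM, ORAI and TRPC genes tested, 0 rose and 0 fell, with 0 at an unadjusted p under 0.05 and 0 with DESeq2, and *Trpc2* had no count in any library. Of 12 other phospholipase C and Gq genes, 1 rose and 0 fell (3 and 1 at an unadjusted p under 0.05, 1 and 1 with DESeq2). It was *Plce1*, a phospholipase C activated by small GTPases, with 6781 ± 190 normalized counts in *Dis3* cKO and 5403 ± 435 in control (SD, n = 5 each). Its log2 fold change was 0.33 (SE 0.07, edgeR adjusted p = 0.0091), it was higher in 5 of 5 *Dis3* cKO libraries than in any control library, and it kept its call without any 1 library. The paralogs of *Plcb1* did not pass, with log2 fold changes of 0.06 for *Plcb2*, 0.18 for *Plcb3* and 0.04 for *Plcb4*. Of 25 genes of calmodulin, CaM kinases and calcineurin, 1 rose and 0 fell (5 and 2 at an unadjusted p under 0.05, 2 and 0 with DESeq2), namely *Camk1d* (0.37, edgeR adjusted p = 0.0406, above the control mean in 5 of 5 *Dis3* cKO libraries), which kept its call only without control replicate 3 or *Dis3* cKO replicate 4 (0.31 to 0.43 over all libraries left out). *Camk2g* (0.07), *Camk2b* (0.18) and *Camk2a* (0.61) did not pass, *Camk2a* with -0.08 in the first set of replicates and 1.91 in the second. Over these 6 family lists together, 8 of 102 tested genes rose and 1 fell, against 4.42% and 3.48% of all tested genes, and their median log2 fold change was 0.08. When each library was left out in turn, 1 to 6 rose and 0 to 2 fell, with 1 rising without control replicate 1 or 2 or *Dis3* cKO replicate 2.

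**Figure D5:**
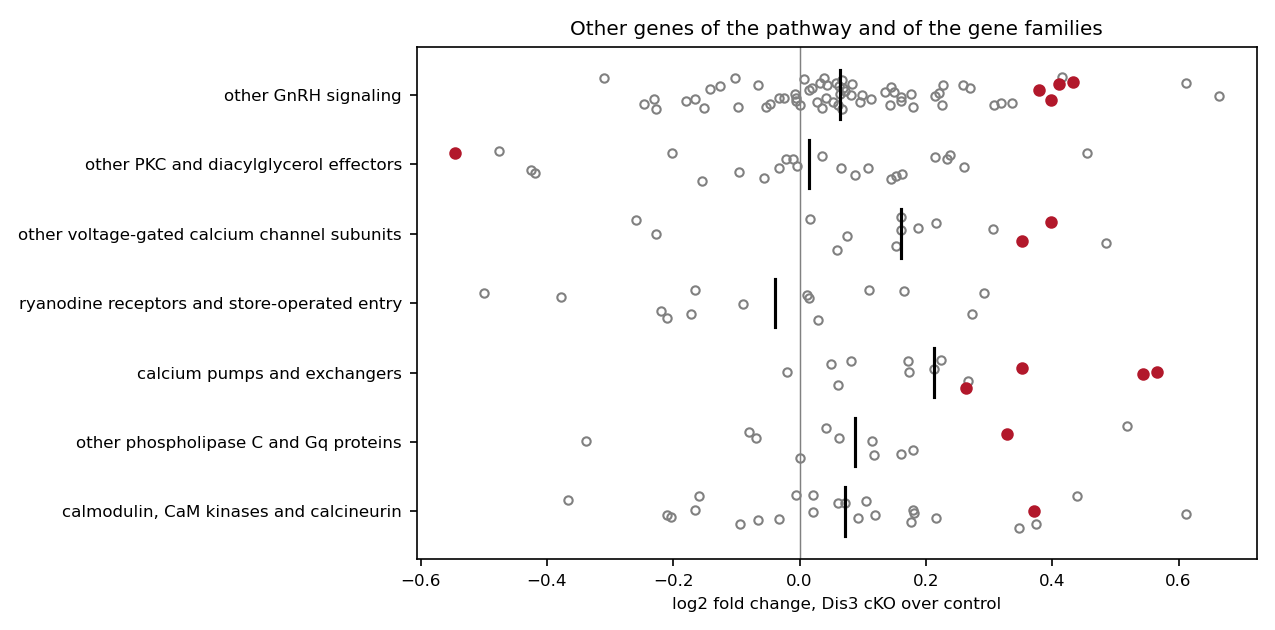
Log2 fold changes, *Dis3* cKO over control, of the other tested genes of the GnRH pathway and of 6 family lists, with filled points past the threshold (edgeR, adjusted p under 0.05) and bars at the median of each list. Medians run from -0.04 for ryanodine receptors and store-operated entry to 0.21 for calcium pumps and exchangers, and *Prkch* at -0.55 is the filled point below 0.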

How the data were processed

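Strand-specific libraries of rRNA-depleted total RNA from P4 testes were made with random and poly(T) priming. The authors used cutadapt for trimming, HISAT2 for alignment and featureCounts 1.6.4 for counting, and the deposited tables hold their raw counts per gene (sense strand) and per PROMPT (antisense strand). The gene table's header names GENCODE M18, whose build is GRCm38, whereas the methods name a later release, and it lists 12 alignment files, 10 of them different. Symbols came from GENCODE M39 by gene ID, and 4103 rows had none. Start regions came from RefSeq (GRCm38.p6).

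Low genes were removed with filterByExpr at its defaults (min.count 10, min.total.count 15). After TMM scaling, genes were tested with the quasi-likelihood test of edgeR 4.0.16 in R 4.3.3, with *Dis3* cKO against control and no other term, two-sided, at a Benjamini-Hochberg adjusted p under 0.05. PROMPTs with a mean of at least 3 counts were tested with the size factors of the genes. The common biological coefficient of variation was 0.172, and no 2 libraries within a group were alike within sampling noise. DESeq2 1.42.0, RLE factors, no filter, a replicate block, the sets of replicates, a length correction and leaving out each library were tried as alternatives. Log2 CPM values used a prior count of 2. The procedure was tested on simulated data.

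The 10 genes and all lists were chosen with earlier results of these data known. Single markers of germ, Sertoli, stromal, myoid and endothelial cells, among them *Dazl*, *Uchl1*, *Rhox8* and *Myh11*, were chosen after their values were seen. So were *Gnrhr*, *Lhb*, *Fshb*, *Cga* and *Trpc2*. Also named besides the 10 are *Dis3*, up to 4 called genes per list with the lowest adjusted p, paralogs of the 10, and the gene with the most similar profile to each. A further gene that this choice takes is not reported here. Markers of Leydig, endothelial, macrophage, erythroid and Schwann cells were also counted: 1 of 7 endothelial markers (*Cdh5*) was higher, 1 of 6 Leydig markers (*Cyp17a1*) was lower, and 0 of 7 macrophage, 0 of 2 erythroid and 0 of 5 Schwann markers passed.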

Additional observations from a re-analysis of the deposited data

Results flagged for a closer look

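Among 28 groups of 5 libraries examined (the normalized counts of the 10 genes and of the upstream antisense RNA of 4 of them, per group), 3 had 1 library far from the other 4 by Dixon's criterion, which chance alone gives in about 1 in 20 groups. *Plcb1* had 784 normalized counts in *Dis3* cKO replicate 4, against 612 to 647 in the other *Dis3* cKO libraries. *Prkcd* had 686 in control replicate 1, against 767 to 774 in the other control libraries. The antisense RNA upstream of *Camk2d* had 7.46 normalized counts in control replicate 1, against 1.84 to 2.88 in the other control libraries, all on fewer than 10 raw counts.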

How the results depend on the processing

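All 4 calls among the 10 genes (*Prkca*, *Cacna1c*, *Itpr1* and *Itpr2*) were kept with DESeq2, with RLE factors, without a filter, with a replicate block, with the set of replicates as a term, within each set alone and without any 1 library (4 in each of these last fits). With the length trend removed, 2 of the 4 were kept. *Prkcb* and *Itpr3* were also called with the replicate block, with the set as a term and within replicates 1 to 3, *Cacna1d* and *Plcb1* within replicates 4 and 5, and *Itpr3* with DESeq2. The median log2 fold change of 0.33 over the 10 genes was 0.45 within replicates 4 and 5 and 0.24 with the length trend removed, and 0.29 to 0.38 without 1 library.

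Same-numbered *Dis3* cKO and control libraries correlated at 0.083 to 0.183 after group means were removed, and not every one correlated best with its own number, so the numbers were not taken to pair the mice. With the replicate block, 1489 genes were called higher and 1337 lower, against 885 and 698, and the other GnRH genes gave 12 higher, and the family lists 13 higher and 4 lower. With the set as a term, 1772 were called higher and 1669 lower, with 11 and 2 of the GnRH genes and 15 and 6 of the family lists. Within replicates 4 and 5, these numbers were 2361 and 2360, 16 and 2, and 24 and 4. DESeq2 called 7 GnRH genes higher and 3 family genes lower. Family genes called lower numbered 3 within replicates 1 to 3 and 2 without a filter. With the length trend removed, 1 GnRH gene was lower and 3 family genes were higher. The causes were not tested.

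Without 1 library, calls over all genes ranged from 516 (without control replicate 2) to 1173 higher and from 366 (without *Dis3* cKO replicate 5) to 806 lower, those of the GnRH genes from 1 to 7 higher and 0 to 1 lower, and those of the family lists from 1 to 6 higher and 0 to 2 lower. The 1 member region of upstream antisense RNA called higher and the 1 called lower ranged from 0 to 1 each, a check added after seeing the data. Counts were low in the upstream regions of *Prkcd* and *Camk2d*, with means under 10.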
